A study of Mus musculus with 8 samples.

Results

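The mitochondrial ribosomal protein genes were compared between HDAC4-expressing and control C2C12 muscle cells. Members were the array probes that the platform annotation assigns to 1 gene alone, with a symbol of Mrpl or Mrps followed by a digit. This gave 72 of 14510 named genes, on 90 of 31769 probes, of which 46 carry a large-subunit (Mrpl) and 26 a small-subunit (Mrps) symbol. The choice used names only and no measured value. C2C12, an established line of mouse myoblasts, forms myotubes once serum is withdrawn. In both groups the cells carried a stably selected retrovirus, were brought to 90% confluence and then spent 4 days in 2% horse serum. The 4 Neo samples held a virus encoding the selection marker, and the 4 HDAC4 samples a virus encoding the class IIa histone deacetylase HDAC4, a partner of MEF2 factors. Whether the samples of a group were separate cultures or 1 selected pool is not stated in the labels, so a p-value here weighs a difference against sample-to-sample spread that may be technical. Each array held Cy5-labelled RNA of the cells and a Cy3-labelled murine reference, which a labelling protocol names as liver, with no dye swap.

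The mitochondrial ribosome is built of a large and a small subunit in the matrix of the organelle and translates the few messenger RNAs of mitochondrial DNA, which encode core subunits of the respiratory chain. Its RNAs come from mitochondrial DNA, whereas all its proteins are encoded in the nucleus, made in the cytosol and imported. Many have bacterial counterparts, and others were added to the ribosome of mitochondria. Skeletal muscle depends on respiration, and inherited defects of several of these proteins impair the respiratory chain. Many promoters of the family lack a TATA box and hold sites for ETS factors such as GABP, for NRF1 and for YY1, which link nuclear genes to mitochondrial biogenesis.

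In these cells no mitochondrial ribosomal protein gene differed between HDAC4 and Neo past an adjusted p of 0.05. Of 70 tested members 0 passed in limma, and over the whole array 17 of 14750 features did (0.115%). At so small a share, a count of 0 does not set the members apart. When same-numbered arrays were paired through a block, 0 members and 9 features (0.061%) passed. Members were split evenly, with 35 higher and 35 lower in HDAC4. The median difference (HDAC4 minus Neo, log2) was -0.0084 over members and -0.0028 over all features. In 68 of the 70 members (97.1%) the 95% interval of the difference lay within a 2-fold change in either direction, against 87.6% of all features, and in 54 (77.1%) it lay within 1.5-fold, against 51.4%.

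Values are the log2 ratio of cells over reference after centring each array on its median. This direction of the ratio is likely rather than stated, read from muscle genes, and all signs rest on it. The Neo arrays had values for between 19248 and 22193 probes and the HDAC4 arrays for between 17014 and 18521. Muscle markers (Ckm, Myog, Des, Mylpf, Tnnt3 and Actn2 measured) had a median ratio between 7.41 and 8.27 on each array. Of these 6, 2 were higher and 4 lower in HDAC4. Actn2 had the widest gap, at -2.44 ± 1.21 (SE; adjusted p = 0.740 in limma). It stood at 0.67 on HDAC4 array 2, between 6.45 and 6.99 on the other HDAC4 arrays and between 7.47 and 7.78 in Neo. Tnnt3 had -0.99 ± 0.58 (SE; adjusted p = 0.801). Genes of undifferentiated or dividing cells (Mki67, Top2a, Cdk1 and Myf5 measured) had a median ratio between -4.17 and -2.83. Of these Myf5 went the other way, with a mean of 1.49 in Neo and 1.09 in HDAC4, and the listed Pax7 had no value. Liver markers had between 0 and 3 values per array, and none was tested. Of their probe values 87.5% lay at a floor of the reference signal, which was inferred from the values. Of the muscle marker values 96.7% also lay at this floor. The muscle ratios, from which the direction was read, thus mostly hold the signal of the cells over a constant. The liver source of the reference was not tested. The arrays numbered 1 in both groups stood apart from the others, and results that rest on them are given with and without them. Hdac4 has no named probe, so the labels were not checked against the transgene. In bulk RNA, fewer cells of a type and less RNA per cell cannot be told apart.

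RefSeq promoter windows (GRCm38.p6) were found for 63 of the 72 members. Each window runs from 250 bases before to 50 bases after the annotated start. The 3 motifs searched on both strands were CCGGAAG, an ETS core, GCGCATG, a part of the NRF1 palindrome, and AAGATGG, a YY1 core. In the windows of 4 members, the 250 bases before the start are given here 5′ to 3′ on the gene's strand, with motif matches in capitals. Mrpl30 is shown as the one member whose groups did not overlap, Mrpl32 for its many NRF1 matches, and Mrpl52 and Mrps18a as members with larger positive differences. They were chosen after their values were seen, and other members had larger differences than Mrps18a. Among those not shown, the window of Mrps23 held the ETS core and that of Mrps18b the ETS core and the NRF1 part. The window of Mrps6 held none of the 3 motifs, and Mrps34 had no window.
Mrpl30, chr1:37890227-37890476, plus strand: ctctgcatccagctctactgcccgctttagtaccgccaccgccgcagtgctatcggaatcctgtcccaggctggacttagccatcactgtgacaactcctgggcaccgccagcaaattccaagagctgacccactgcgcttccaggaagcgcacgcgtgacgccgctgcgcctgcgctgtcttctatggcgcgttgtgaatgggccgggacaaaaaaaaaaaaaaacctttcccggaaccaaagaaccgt
Mrpl32, chr13:14613038-14613287, minus strand: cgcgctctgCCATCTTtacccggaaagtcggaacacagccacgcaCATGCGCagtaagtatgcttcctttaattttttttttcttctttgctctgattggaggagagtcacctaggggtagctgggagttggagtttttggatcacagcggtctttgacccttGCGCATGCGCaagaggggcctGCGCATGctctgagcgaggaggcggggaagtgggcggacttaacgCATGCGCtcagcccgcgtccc
Mrpl52, chr14:54426659-54426908, plus strand: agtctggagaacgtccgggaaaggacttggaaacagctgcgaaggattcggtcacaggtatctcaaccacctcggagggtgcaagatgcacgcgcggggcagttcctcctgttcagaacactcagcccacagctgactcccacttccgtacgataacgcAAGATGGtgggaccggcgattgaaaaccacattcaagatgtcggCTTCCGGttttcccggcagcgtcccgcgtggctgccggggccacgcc
Mrps18a, chr17:46110754-46111003, plus strand: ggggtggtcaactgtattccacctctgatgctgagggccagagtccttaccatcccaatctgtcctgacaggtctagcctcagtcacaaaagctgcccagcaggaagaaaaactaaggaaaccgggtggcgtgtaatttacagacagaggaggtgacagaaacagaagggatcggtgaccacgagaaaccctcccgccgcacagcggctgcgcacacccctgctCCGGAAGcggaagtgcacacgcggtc

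The upstream bases of Mrpl32 held 5 NRF1 matches and 1 YY1 match. These NRF1 matches included a pair that overlapped, 1 on each strand of the same palindrome. The upstream bases of Mrpl52 held 1 ETS and 1 YY1 match, those of Mrps18a 1 ETS match and those of Mrpl30 0 of the 3 motifs. Over the whole windows, 23 of 63 member genes (36.5%) held the ETS core, against 12.9% of protein-coding genes and 9.93% of all genes in the table. The NRF1 part was in 7 (11.1%), against 5.40% of protein-coding genes, and the YY1 core in 11 (17.5%), against 7.18%. At least 1 of the 3 was in 34 members (54.0%) and in 22.8% of protein-coding genes. Member windows were richer in G and C, with a mean of 59.0% against 56.2%. Among protein-coding genes with windows in the members' GC range the ETS core was in 15.9%. The cytosolic ribosomal protein genes held the ETS core in 35.8%, the NRF1 part in 10.4% and the YY1 core in 14.9%. By subunit, the ETS core was in 14 of 40 large-subunit (35.0%) and 9 of 23 small-subunit genes (39.1%), and the NRF1 part in 6 (15.0%) and 1 (4.35%). No member held all 3 motifs, and no match of 1 motif overlapped a match of another. A match is a run of letters and was not tested for binding.

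The factors that bind such motifs had small differences. Nrf1 had a difference of 0.024 ± 0.14 (SE), Gabpa, the DNA-binding GABP subunit, one of 0.034 ± 0.11 (SE), and Yy1 one of 0.14 ± 0.13 (SE). Of 9 regulators of mitochondrial genes tested, 7 were higher, 2 lower and 0 called, where 0.115% of all features were called. Ppargc1a, which encodes the coactivator PGC-1α, had the widest gap of them. It stood at 2.05, 1.02, 1.36 and 1.19 on Neo arrays 1 to 4, and at 1.01, -0.013, 1.05 and 0.65 on HDAC4 arrays 1 to 4. The groups overlapped at their edges, and the difference of -0.73 ± 0.29 (SE) did not pass in limma (adjusted p = 0.608).

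Members were measured well on these arrays. Of their 90 probes 81 had a value on all 8 arrays (90.0%), against 50.4% of probes that name 1 gene. Mrpl12, a protein of the stalk that recruits translation factors, had 1 probe and no value on any array. Mrps14, of the small subunit head, stood at 0.75, 0.084, 0.74 and -0.20 on the Neo arrays and was missing from all 4 HDAC4 arrays. Why values are missing is not stated in the sources at hand, so no fold was drawn from it. Of 11982 named genes with any value 76 had this pattern while 0 had the reverse. Among the 71 members with a value, Mrps14 was the 1 with values in one group only. Without Mrpl12 and Mrps14, 70 members were left to test, 45 large and 25 small, of which 68 had all 8 values.

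Against the reference, most members were higher in the control cells. The median Neo ratio was 0.44 over tested members, from -0.59 to 1.80, and -0.0097 over all features. It was above 0 in 55 of 70 members (78.6%), against 49.5% of features. It was 0.45 for large-subunit and 0.39 for small-subunit genes. Within the large subunit, the 25 tested genes numbered up to 36, which have bacterial counterparts, had a median of 0.26, and the 20 numbered above 36, which are mostly specific to mitochondria, one of 0.75. The 77 tested respiratory chain subunits had a median of 1.02 and the 56 cytosolic ribosomal protein genes one of 0.032. If the ratio ran the other way, the same 55 members would lie below 0 and the highest and lowest members described next would change places. These ratios compare cells with a reference of uncertain source and do not rank transcripts by abundance.

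**Figure D1:**
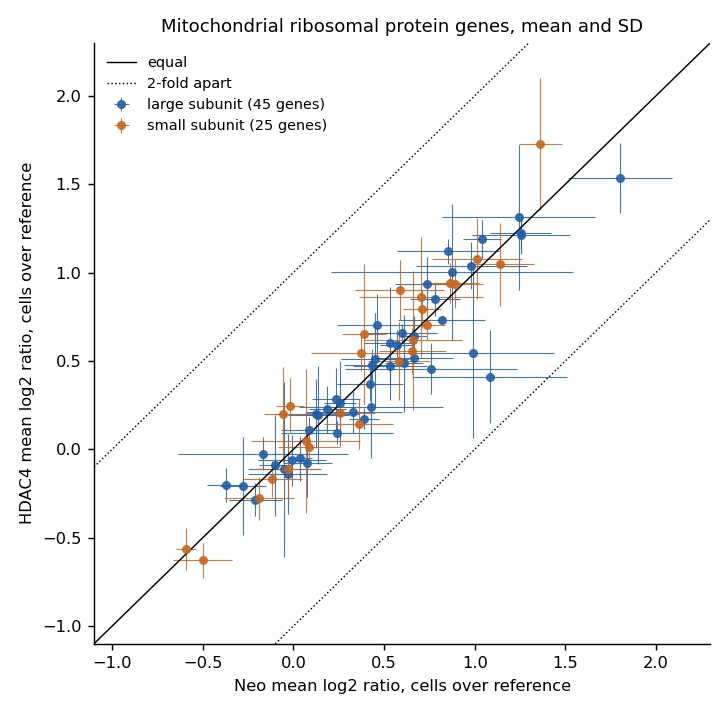
Mean log2 ratio of cells over reference in Neo (horizontal) and HDAC4 (vertical) for the 70 tested genes, blue for the large and orange for the small subunit, with bars for the SD over the arrays of a group. Every gene lies between the dotted lines that mark a 2-fold difference, around the line of equality.

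The highest Neo ratios of the large subunit were those of Mrpl47, beside the peptide exit tunnel (1.80 ± 0.28, SD, n = 4), Mrpl55 (1.25 ± 0.27, SD, n = 4), and Mrpl53 (1.25 ± 0.17, SD, n = 4). The lowest were those of Mrpl54 (-0.37 ± 0.11, SD, n = 4), Mrpl40 (-0.28 ± 0.13, SD, n = 4) and Mrpl19 (-0.21 ± 0.15, SD, n = 4). In the small subunit Mrps23 (1.36 ± 0.12, SD, n = 4), Mrps31 (1.14 ± 0.19, SD, n = 4) and Mrps22 (1.01 ± 0.25, SD, n = 4) were highest. Mrps35 (-0.59 ± 0.053, SD, n = 4), Mrps33 (-0.50 ± 0.16, SD, n = 4) and Mrps17 (-0.19 ± 0.19, SD, n = 4) were lowest. Within each of these trios the neighbours lay within about their spread of each other, with 3 exceptions. The gaps of Mrpl47 to Mrpl55, of Mrps23 to Mrps31 and of Mrps17 to Mrps33 were larger than either SD. The ratio of Mrpl47 rests on 7 of 8 values at the floor of the reference signal, where the log2 ratio holds the signal of the cells alone. That floor of 10 units was inferred from the values. It touched 31 of 680 member values (4.56%), against 10.0% of all values, and 57 measured members had none.

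The difference between HDAC4 and Neo was under 0.1 in size for 42 of 70 members (60.0%), against 36.4% of all features, and over 0.5 for 1, against 7.02%. It spanned -0.67 to 0.37. The median SD within a group was 0.175 over members and 0.262 over features, and the median SE of the difference 0.144 against 0.183. At an unadjusted p under 0.05, 1 of 70 members passed, against 7.34% of features. All 4 HDAC4 values lay below all Neo values for 1 member, against 3.2% of features, and above them for 0, against 2.12%.

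**Figure D2:**
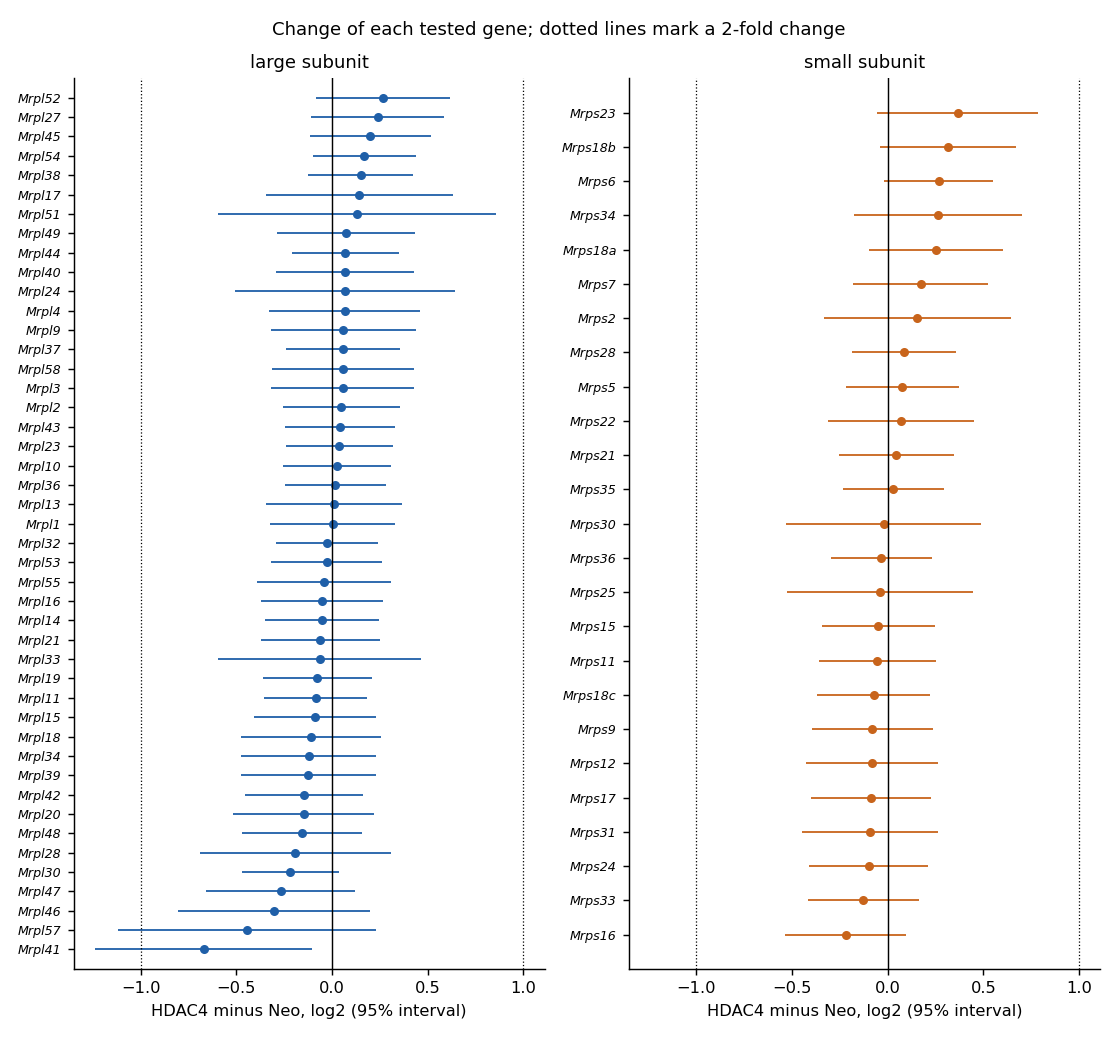
Difference between HDAC4 and Neo (log2, horizontal) for each tested gene of the large and the small subunit, with points for the estimate and bars for the 95% interval from limma, sorted by size. The bars of 2 genes, Mrpl41 and Mrpl57, reach past the dotted 2-fold lines, and 1 bar, that of Mrpl41, leaves out 0.

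Mrpl41, a mitochondria-specific protein of the large subunit, had the smallest p. It stood at 0.91, 1.48, 0.56 and 1.38 on Neo arrays 1 to 4, and at 0.13, 0.45 and 0.65 on HDAC4 arrays 1, 3 and 4, with no value on HDAC4 array 2. HDAC4 array 4 lay above Neo array 3, so the groups overlapped. The difference of -0.67 ± 0.25 (SE, n = 4 and 3) had an adjusted p of 0.599 in limma and an exact two-sided permutation p of 0.0857. Of its 7 values 4 were at the reference floor. Mrpl57, another small protein added in mitochondria, also had 4 of 7 values at the floor. Its Neo values were 0.99, 1.21, 1.40 and 0.37, and its HDAC4 values on arrays 2 to 4 were -0.013, 0.83 and 0.82. The difference of -0.45 ± 0.30 (SE, n = 4 and 3; adjusted p = 0.856) was within the spread. Mrpl41, Mrpl57 and Mrpl47 (-0.27 ± 0.17, SE; adjusted p = 0.842) were the 3 members with most values at the floor, and each was lower in HDAC4. Without values at the floor they had too few values for the test, and the part of the floor in these differences was not tested.

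Mrpl30, a large-subunit protein with a bacterial counterpart, was the one member whose groups did not overlap. It stood at 0.41, 0.46, 0.42 and 0.27 in Neo and at 0.26, 0.12, 0.15 and 0.16 in HDAC4. The gap between Neo array 4 and HDAC4 array 1 was narrow. The difference was -0.22 ± 0.11 (SE), a 1.16-fold lower ratio, with an adjusted p of 0.754 in limma. Its exact permutation p of 0.0286 is the smallest that 4 against 4 arrays allow, before any adjustment. It was -0.24 without both arrays numbered 1.

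Among members with positive differences, Mrpl52, of the central protuberance, had a wide spread in Neo alone. It stood at 0.56, 1.0, 1.17 and 0.67 in Neo and at 1.14, 1.02, 1.15 and 1.17 in HDAC4. The 4 HDAC4 arrays were close together while Neo arrays 1 and 4 were low. The difference was 0.27 ± 0.16 (SE; adjusted p = 0.801). Mrpl27, which reaches towards the peptidyl transferase centre, had a difference of 0.24 ± 0.15 (SE; adjusted p = 0.842). Its values were 0.38, 0.62, 0.67 and 0.19 in Neo and 0.44, 0.78, 0.81 and 0.77 in HDAC4, with HDAC4 array 1 inside the Neo range.

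In the small subunit the smallest p belonged to Mrps6, a protein of the platform. It stood at -0.11, -0.053, 0.073 and 0.0056 in Neo and at 0.017, 0.37, 0.29 and 0.31 in HDAC4. HDAC4 arrays 2 to 4 lay above every Neo array and HDAC4 array 1 lay among them. The difference was 0.27 ± 0.13 (SE), with an adjusted p of 0.718 in limma and an exact permutation p of 0.0571. Mrps23, which is mutated in a mitochondrial disease, stood at 1.51, 1.31, 1.39 and 1.24 in Neo and at 1.64, 2.28, 1.45 and 1.55 in HDAC4. HDAC4 array 2 was the high one, and HDAC4 array 3 lay below Neo array 1. The difference of 0.37 ± 0.19 (SE; adjusted p = 0.750) was 0.18 without HDAC4 array 2.

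Mrps18b stood at 0.74, 0.54, 0.81 and 0.26 in Neo and at 0.66, 0.93, 1.04 and 0.97 in HDAC4. Both of its probes were higher in HDAC4, by 0.24 and 0.39, and the groups overlapped through HDAC4 array 1. The gene's difference was 0.31 ± 0.16 (SE; adjusted p = 0.748). Mrps18a, a relative of Mrps18b that structures place in the large subunit, was at -0.13, -0.065, 0.10 and -0.13 in Neo and at -0.19, 0.37, 0.24 and 0.38 in HDAC4. Again HDAC4 array 1 was the low one. Its difference was 0.25 ± 0.16 (SE; adjusted p = 0.825). Mrps34, whose loss destabilises the small subunit, stood at 0.26, 0.42, 0.54 and 0.33 in Neo and at 0.06, 0.78, 0.82 and 0.95 in HDAC4. HDAC4 array 1 lay below all Neo arrays and the other 3 above them, and the difference was 0.26 ± 0.20 (SE; adjusted p = 0.868). Mrps16, by contrast in sign, had -0.22 ± 0.14 (SE; adjusted p = 0.840), from Neo values of 0.41, 0.29, 0.14 and 0.59 and HDAC4 values of -0.03, 0.28, 0.23 and 0.08.

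**Figure D3:**
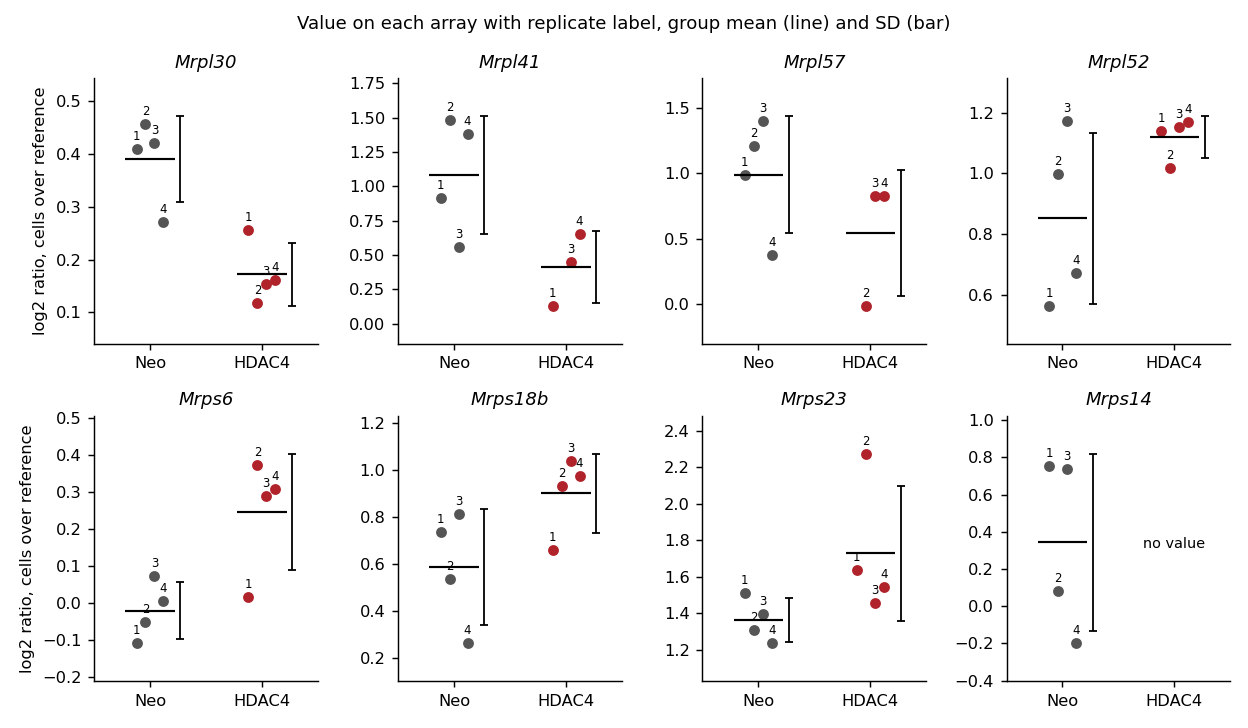
Log2 ratio of cells over reference on each array for 8 members, with replicate labels, a line for the group mean and a bar for the SD. The groups are separate in Mrpl30 alone of the 7 members with values in both, HDAC4 array 1 is the lowest HDAC4 array in Mrps6, Mrps18b and Mrpl41, and Mrps14 has no HDAC4 value.

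By role, no group of the ribosome moved as a block. Around the peptide exit tunnel 5 of 6 tested members were higher and 1 lower, with a median of 0.069. In the central protuberance 4 of 9 were higher and 5 lower (median -0.020). Of the proteins near the peptidyl transferase centre and core, Mrpl2 (0.050), Mrpl3 (0.056) and Mrpl4 (0.066) were higher and Mrpl16 (-0.052) lower, each with an SE between 0.14 and 0.18. Along the decoding site and the path of the messenger RNA 3 of 7 were higher and 4 lower (median -0.055). Among these was Mrps12, a homologue of the bacterial protein that sets decoding accuracy, at -0.082 ± 0.15 (SE). The stalk base had Mrpl10 at 0.025 ± 0.13 (SE) and Mrpl11 at -0.085 ± 0.12 (SE). In all of these groups 0 members passed. Over all features 0.115% did, so these counts do not set the groups apart.

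Of 13 members linked to human mitochondrial disease, 11 were tested, 9 were higher, 2 lower and 0 called, with a median of 0.069. Over all features 0.115% were called, so a count of 0 does not set them apart. Mrpl44, an RNase III relative beside the exit tunnel, had a difference of 0.069 ± 0.13 (SE), Mrpl24, at the tunnel's mouth, 0.068 ± 0.26 (SE), and Mrps28 0.083 ± 0.12 (SE). Mrps2 had 0.16 ± 0.22 (SE) and Mrps7, an rRNA-binding protein of the head, 0.17 ± 0.16 (SE). Mrpl39 had -0.12 ± 0.16 (SE). Its Neo values were 0.75, 0.61, 0.55 and 0.52, and its HDAC4 values 0.09, 0.56, 0.73 and 0.57, so HDAC4 array 1 alone was low, and without both arrays numbered 1 the difference was 0.056.

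The subunits did not separate. The large subunit had 23 members higher and 22 lower, with a median of 0.0029, and the small subunit 12 higher and 13 lower, with a median of -0.020. The mean over genes had the opposite sign in both, at -0.031 and 0.041. The median deviation of large-subunit genes from their own mean over arrays was 0.13, 0.0013, 0.0013 and -0.087 on Neo arrays 1 to 4, and -0.12, -0.042, 0.070 and 0.028 on HDAC4 arrays 1 to 4. For the small subunit it was -0.031, -0.033, -0.018 and -0.086 in Neo and -0.052, -0.033, 0.058 and 0.039 in HDAC4. The group means, 0.012 ± 0.090 and -0.016 ± 0.084 (SD, n = 4) for the large and -0.042 ± 0.030 and 0.0029 ± 0.054 (SD, n = 4) for the small subunit, differed by less than the larger SD of each pair. Large minus small was widest on Neo array 1, at 0.16, and lowest on HDAC4 array 1, at -0.070, and on the other 6 arrays it lay between -0.011 and 0.034. Structures place Mrps18a and Mrps30 in the large subunit and Mrps36 in another enzyme complex. With genes assigned in that way the medians were 0.0029 over 47 large and -0.0057 over 22 small members.

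**Figure D4:**
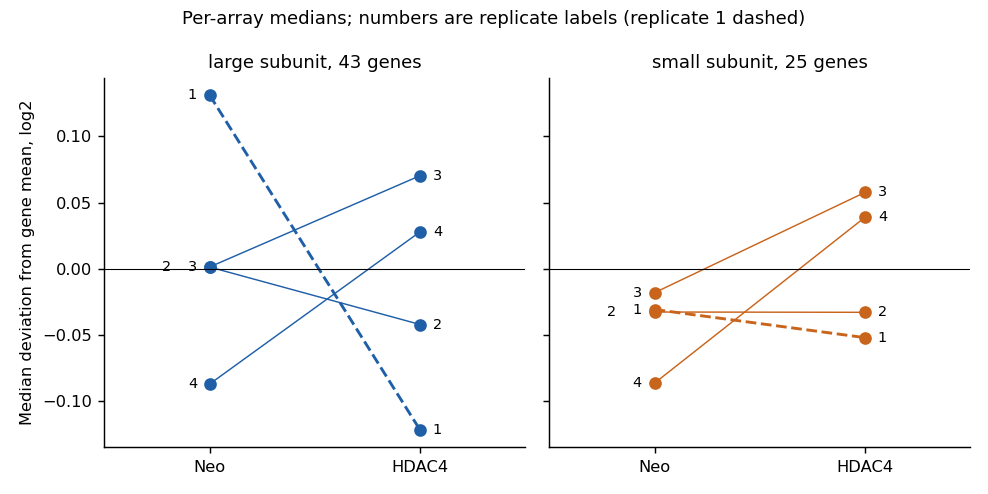
Median deviation of each array from the gene means (log2, vertical) over the 43 large-subunit and the 25 small-subunit genes with all 8 values, with lines that join arrays of 1 replicate number and a dashed line for number 1. The large-subunit line of number 1 runs from 0.13 down to -0.12 while those of numbers 3 and 4 run upwards, and Neo arrays 2 and 3 share a point at 0.0013.

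The arrays numbered 1 differed from the other 6 in 20.3% of features (adjusted p under 0.05, replicate 1 against 2 to 4 with the group in the model). Of 70 members 4 did (5.71%), all higher on the arrays numbered 1. Mrpl24 stood at 1.84 and 1.91 on Neo and HDAC4 array 1 and between 0.93 and 1.23 on the others, a difference of 0.80 (adjusted p = 0.00616). Mrps30 (0.66, adjusted p = 0.0158), Mrps25 (0.57, adjusted p = 0.0388) and Mrpl49 (0.42, adjusted p = 0.0274) were the others. In Mrpl49 and Mrps30 the step came from 1 of 2 probes. The Mrpl49 probe with the step was at 0.68 and 0.50 on the arrays numbered 1 and between -0.26 and -0.02 elsewhere, and its other probe between 0.12 and 0.49 on all 8. The stepped Mrps30 probe was at 0.36 and 0.69 on the arrays numbered 1 and between -0.81 and -0.16 elsewhere, and its other probe between 0.16 and 0.58. None of these 4 genes had a difference between HDAC4 and Neo over 0.1.

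**Figure D5:**
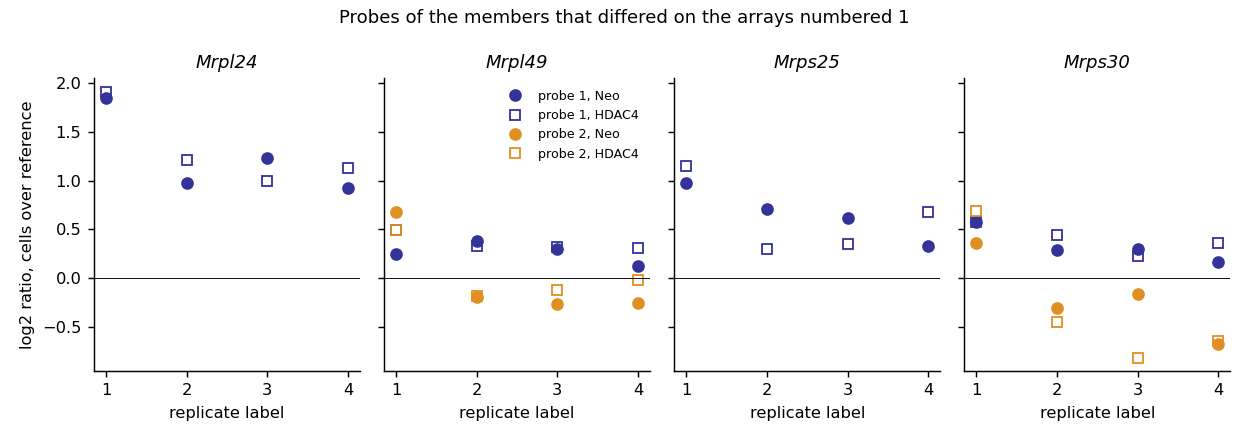
Log2 ratio of cells over reference (vertical) by replicate label (horizontal) for each measured probe of the 4 members that differed on the arrays numbered 1, filled circles for Neo and open squares for HDAC4, with a colour for each probe. In Mrpl49 and Mrps30 the orange probe is above 0 at replicate 1 and below 0 at replicates 2 to 4 while the blue probe stays above 0.

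With the arrays numbered 1 as a batch term, 0.624% of features and 0 of 70 members passed between HDAC4 and Neo, and the lowest adjusted p of a member was 0.263 (Mrps6). With both of those arrays left out, 2.23% of features and 0 of 69 members passed. The lowest adjusted p was then 0.104 (Mrps34, difference 0.42), and 7 members (10.1%) had an unadjusted p under 0.05, against 18.2% of features. They were Mrpl30, Mrpl45, Mrps6, Mrps18a, Mrps18b, Mrps22 and Mrps34, of which Mrpl30 was lower and the others higher in HDAC4. In the pair numbered 1 the difference had the opposite sign in Mrpl45 (-0.14), Mrps18a (-0.059), Mrps18b (-0.078), Mrps22 (-0.61) and Mrps34 (-0.19). Without these arrays 32 of 44 large-subunit members were higher (median 0.078) and 12 of 25 small-subunit members (median -0.013), against 49.1% of features. Between same-numbered arrays, HDAC4 minus Neo for the large-subunit median was -0.25, -0.043, 0.069 and 0.12 for numbers 1 to 4, and for the small subunit -0.021, -0.00022, 0.076 and 0.13. The pair numbered 1 holds 1 array per group and has no test.

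Of 13 members with several probes that each had at least 3 values per group, the probes of 5 differed in direction, by small amounts except in Mrps22 and Mrps33. The probes of Mrps22 gave -0.13 and 0.26, and those of Mrps33 -0.36 and 0.11. The latter also stood 1.93 apart in their Neo ratio, at -1.47 and 0.46, so the low mean ratio of Mrps33 rests on 1 of its probes. In Mrpl1, Mrpl58 and Mrps30 the probes lay within 0.2 of each other in their difference. For Mrpl33 the lower probe had no value on HDAC4 array 4, which left the gene's value there at 0.57. Its probes gave -0.33 and -0.20 while the gene's difference was -0.064.

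Genes that act with the mitochondrial ribosome had 0 calls in limma in each list fixed for them, where 0.115% of all features were called. The 13 genes listed as translation factors included Lrpprc and Slirp, which bind messages and were both higher in HDAC4. Of the 13, 8 were higher and 5 lower, with a median of 0.025. Taco1, which activates translation of the mitochondrial cytochrome oxidase subunit I message, was at 1.19, 1.32, 1.48 and 1.08 in Neo and at 0.37, 0.47, 0.74 and 0.90 in HDAC4. All HDAC4 arrays lay below all Neo arrays, and the difference of -0.65 ± 0.16 (SE) had an adjusted p of 0.281, or 0.0871 with the arrays numbered 1 as a batch. Tufm, the elongation factor that brings in aminoacyl tRNA, had 0.27 ± 0.13 (SE; adjusted p = 0.739), and Lrpprc, which stabilises mitochondrial messages, 0.52 ± 0.23 (SE, n = 4 and 3; adjusted p = 0.700). Of 17 assembly and rRNA modification genes 9 were higher and 8 lower. Mtg2, a GTPase of large-subunit assembly, had 0.40 ± 0.15 (SE; adjusted p = 0.606), with values of 1.15, 0.79, 0.95 and 0.65 in Neo and 1.04, 1.48, 1.32 and 1.31 in HDAC4, where array 1 fell inside the Neo range. Nsun4, an rRNA methyltransferase that also joins the subunits, had 0.33 ± 0.15 (SE; adjusted p = 0.692).

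Of 17 genes listed with the mitochondrial aminoacyl tRNA synthetases 11 were higher and 6 lower. Qrsl1 (0.13), Gatb (0.17) and Gatc (0.024), among the higher, encode amidotransferase subunits and not synthetases. Rars2, the synthetase for arginine, had 3 HDAC4 values that all lay above the 4 Neo values. Its difference was 0.40 ± 0.19 (SE; adjusted p = 0.724). Of 9 genes for upkeep and transcription of mitochondrial DNA 6 were higher and 3 lower. Tfam, which packages that DNA, had 0.059 ± 0.19 (SE). The ribosomal proteins under other symbols, Dap3 (-0.068 ± 0.14, SE) and Chchd1 (-0.062 ± 0.16, SE), were also within their spread. Of the comparison families, 31 of 77 respiratory chain subunits were higher and 46 lower (median -0.026). Of 56 cytosolic ribosomal protein genes 29 were higher and 27 lower (median 0.0070). Both families had 0 calls, where 0.115% of all features were called.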

How the data were processed

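Total RNA of 8 samples was measured on 2-colour oligonucleotide arrays. Values are the log2 ratios that the authors deposited for each probe on each array. Their direction, normalization and background correction, the filters and the software are not stated in the sources used here, and missing values are left as deposited. Probes were named from the platform annotation, which can be old, and symbols updated through RefSeq (GRCm38.p6). It lists 19380 of the 31769 probes (61.0%). Arrays were centred on their medians, probes of a gene were averaged within an array, and 3 values per group were required. The groups were compared by lmFit and eBayes of limma 3.58.1 (R 4.3.3), adjusted by Benjamini-Hochberg over 14750 features, threshold 0.05, and checked on simulated data. For single genes an exact permutation test, two-sided, was added. Intervals are unadjusted 95% limma intervals. The number of arrays limits the precision.

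Named members were the 6 smallest p per subunit, members with separate groups, values in 1 group or probes of opposite direction, the 3 highest and 3 lowest Neo ratios per subunit, and 13 disease-linked genes. Further members are named after their values were seen: those with differences between the arrays numbered 1 and the rest, with an unadjusted p under 0.05 without them, or as examples of a role. Members, lists and rule were chosen with earlier results of these data known. No list was tested as a set.

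Same-numbered arrays of the 2 groups, numbered in the sample titles, deviated from their group means with correlations of 0.522, 0.300, 0.188 and 0.112 across features. All exceeded the limit of 0.1 set for pairing, the last narrowly. That limit does not ask whether the same-numbered array is the closest one. Each array numbered 1 or 2 correlated most with its same-numbered partner, as did Neo array 4. HDAC4 array 4, however, correlated more with Neo arrays 2 (0.251) and 3 (0.222) than with Neo array 4. HDAC4 array 3 was closest to Neo array 2 (0.213), and Neo array 3 to HDAC4 array 4. A pairing of the arrays numbered 3 and 4 was thus not shown. The fit behind the printed errors and p-values has no block, and the blocked fit is an alternative. Alternatives covered the block, the arrays numbered 1, each array left out, centring, the filter, probe averaging, the floor and the variance prior.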

Additional observations from a re-analysis of the deposited data

Results flagged for a closer look

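Within groups of 4 arrays, 1 array stood far from the other 3 in 4 of the members. The rule also flagged 1 array of each group in the count of member probes with a value. These are 6 of 73 groups examined, and for values without ties chance gives about 1 in 20 such groups. Mrpl27 stood at 0.442 on HDAC4 array 1 and between 0.775 and 0.809 on the other HDAC4 arrays. Mrps2 stood at 0.351 on HDAC4 array 1 and between 0.998 and 1.09 on the others. Mrps7 was at 0.691 on HDAC4 array 2 and between 0.486 and 0.498 on the others. Mrpl40 was at -0.466 on Neo array 2 and between -0.217 and -0.208 on the others. Neo array 1 had 87 member probes with a value and the other Neo arrays 86, and HDAC4 array 4 had 83 and the others 84. In these counts the other 3 arrays tie, so the rule flags a gap of 1 probe and the rate of 1 in 20 does not apply.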

How the results depend on the processing

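The count of 0 members past the threshold held in every alternative, and 19 of 32 named tested members kept their sign in every alternative that gave them a value (13 to 19 for each member). Calls over all features were 17, and 9 under a replicate block, which changed no call of a member (lowest adjusted p 0.370). They were 92 with the arrays numbered 1 as a batch, 305 with those left out, 1 without values at the reference floor, and 0 to 65 with 1 array left out. Without Neo array 1 the count was 65, without HDAC4 array 1 it was 62, and without HDAC4 array 2, 3 or 4 it was 3, 4 and 2. The count was 0 without Neo array 2, 3 or 4 in limma, where 838, 877 and 861 features had an unadjusted p under 0.05. The large minus small median, 0.023, was 0.090 without the arrays numbered 1, -0.073 as a mean over genes, and -0.062 to 0.018 with 1 array left out. The small-subunit median, -0.020, was 0.041 as a mean and -0.010 to 0.041 with 1 array left out. Mrpl1 reversed to -0.0040 with centring on probes with all values. Without the arrays numbered 1, Mrpl39, Mrpl53, Mrpl55 and Mrps31 reversed to 0.056, 0.087, 0.10 and 0.096. With 1 array left out, members that changed sign ranged from -0.059 to 0.11 (Mrpl1), -0.13 to 0.27 (Mrpl24), -0.044 to 0.16 (Mrpl3), -0.21 to 0.0084 (Mrpl39), -0.040 to 0.19 (Mrpl40), -0.079 to 0.047 (Mrpl53), -0.11 to 0.092 (Mrpl55), -0.032 to 0.16 (Mrpl58), -0.15 to 0.0043 (Mrps17), -0.0077 to 0.19 (Mrps22), -0.21 to 0.11 (Mrps30), -0.16 to 0.020 (Mrps31) and -0.0065 to 0.086 (Mrps35). The causes were not tested. Signal over background is unknown for these values, so a faint gene cannot be told from a measured one except at the floor.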
